A study of Mus musculus with 6 samples.

Results

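The genes described here are 41 mouse genes of the antioxidant programme: the transcription factor NRF2 (gene Nfe2l2) and its inhibitor Keap1, NRF2-inducible enzymes, and the glutathione, thioredoxin, peroxiredoxin, superoxide and NADPH systems that remove oxidants. The rule takes them by gene symbol and uses no measured value, though the list was drawn up with earlier results of these data known, and all 41 were found by symbol among the 53465 genes of the deposited expected-count table. The cells were 4T1, a mouse mammary carcinoma line, derived from post-surgical lesions of mice dosed with axitinib, a VEGF receptor kinase inhibitor, at 100 mg/kg/day. All cells were afterwards cultured for more than 2 months with 0.5 µM axitinib and 5% serum. They were sorted by C12FDG, a fluorogenic substrate of senescence-associated β-galactosidase, into a bright fraction (SM positive, 3 libraries) and a dim fraction (SM negative, 3 libraries). Every library therefore comes from a population kept in drug, and no parental or drug-free 4T1 library enters these comparisons. The sources used here give neither the age nor the strain of the mice.

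NRF2 is held in the cytoplasm by KEAP1, which directs its ubiquitination. When oxidants or electrophiles modify KEAP1 cysteines, NRF2 accumulates, pairs with small MAF proteins and binds antioxidant response elements near genes for glutathione synthesis, thiol reduction, quinone and haem breakdown and NADPH supply. Peroxides themselves are removed by catalase, glutathione peroxidases and peroxiredoxins, whose reducing power comes from NADPH through glutathione reductase and thioredoxin reductase. Tumour cells often carry a raised level of these systems, and senescent cells are commonly described as oxidatively stressed.

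Of the 41 genes, 40 passed the filter on low counts and 1, Gpx3, did not. In edgeR's test with replicate numbers as blocks, 5 of the 40 rose in SM positive cells (Nfe2l2, Osgin1, Gsr, Cat and Mgst1; 8.52% of all tested genes rose) and 2 fell (Gpx8 and Gsta1; 5.6% of all tested genes fell). That is 17.5% of the tested members, against 14.1% of all 14038 tested genes, so the share was near the background. The other 33 did not pass, among them Keap1, Hmox1, Gclc, Gclm, Txnrd1, Srxn1 and all 6 peroxiredoxins. The median log2 change was 0.03 over the 40 members and -0.0011 over all tested genes, and the median size of a change was 0.06 and 0.10. Calls rested on the pairing of libraries: without the block none of the 40 passed edgeR's test (8 had an unadjusted p under 0.05), against 1.35% of all genes, where 13.6% had such an unadjusted p. DESeq2 with the block called none of the 37 members to which it gave an adjusted p (7 of the 40 had an unadjusted p under 0.05), against 5.04% of all genes with an adjusted p. With the block but without pair 1 only Nfe2l2 of the 40 passed (5.03% of all genes), without pair 2 Nfe2l2, Osgin1, Cat, Gpx8 and Prdx6 passed (12.6%), and without pair 3 Osgin1, Cat and Gpx8 (6.23%).

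With other settings the count of members past the threshold was 9 with no filter on low counts (8.77% of all genes), 8 with genes kept only above 1 CPM in 3 libraries (16.2%), 6 with limma-voom (11.3%), 5 without robust estimation (11.0%) and 4 at an adjusted p under 0.01 (6.69%). Without the block and with 1 library left out, no member passed edgeR's test in any of the 6 fits, where 0.302%, 0.175% and 0.274% of all genes passed without SM negative libraries 1, 2 and 3, and 0.864%, 0.82% and 0.336% without SM positive libraries 1, 2 and 3.

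The libraries held 18733801 to 26533528 counts, and mitochondrial transcripts took 1.54% to 1.90% of them. The carcinoma's epithelial markers were present: the 8 markers summed to 3120 to 3342 CPM (library-scaled counts, TMM) in SM negative and 2997 to 3189 CPM in SM positive libraries, led by Krt18 and Krt8. Krt19 and Cldn7 stayed under 3 CPM, and Epcam, Cldn4 and Krt19 fell with the block. The 9 leukocyte markers summed to 6.29 to 8.53 and 4.72 to 6.28 CPM, nearly all from Cd68, with Adgre1, Cd3e, Ly6g and Tyrobp at 0 in all 6 libraries and Csf1r at no more than 0.506 CPM. The 8 fibroblast markers summed to 4.55 to 5.05 and 6.02 to 8.41 CPM, mostly from Pdgfra (which rose, as Cd68 fell, with the block), with Col1a1 under 1 CPM and Lum and Thy1 at 0. The 6 endothelial markers summed to at most 0.427 CPM, Pecam1 and Cdh5 included. The part of these shifts in the results below was not tested, and in bulk RNA fewer expressing cells and less RNA per cell cannot be told apart.

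Levels were divided by the kilobases of annotated exon, joined over all isoforms of a gene, for a rough comparison between genes. Isoforms that are not expressed add to this length and lower the level of their gene, which was not corrected. On this measure the cytosolic thiol and peroxide enzymes dominated the set. Txn1, the cytosolic thioredoxin, averaged 345 CPM per kb over the 6 libraries, followed by the peroxiredoxin Prdx1 at 242, the phospholipid hydroperoxide peroxidase Gpx4 at 156 and Prdx2 at 102 CPM per kb. At the other end stood Nqo1 at 0.256, the extracellular superoxide dismutase Sod3 at 0.194 and the plasma peroxidase Gpx3 at 0.102 CPM per kb. Nqo1, a quinone reductase and a widely used readout of NRF2 activity, was therefore among the lowest in cells that transcribed other NRF2-inducible genes, such as Hmox1 at 81.8 and Txnrd1 at 52.9 CPM per kb. Together the 41 genes took 0.545%, 0.533% and 0.519% of all counts in SM negative libraries 1, 2 and 3, and 0.543%, 0.546% and 0.516% in SM positive libraries 1, 2 and 3, so the totals of the fractions overlapped. Exon sequence shared with other annotated genes makes single-gene levels uncertain for Gsta1 (other genes hold 92.9% of its 31-base stretches), Gpx4 (38.9%), Gstp1 (38.5%), Gstm1 (28.8%), Sod2 (26.6%), Prdx1 (15.2%), Taldo1 (14.0%) and G6pdx (12.6%). The genes that share most with Sod2 are AC166110.4, Rps6ka2 and Trim27, and with Taldo1 Gm17823, Ric8a and Fuk.

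**Figure D1:**
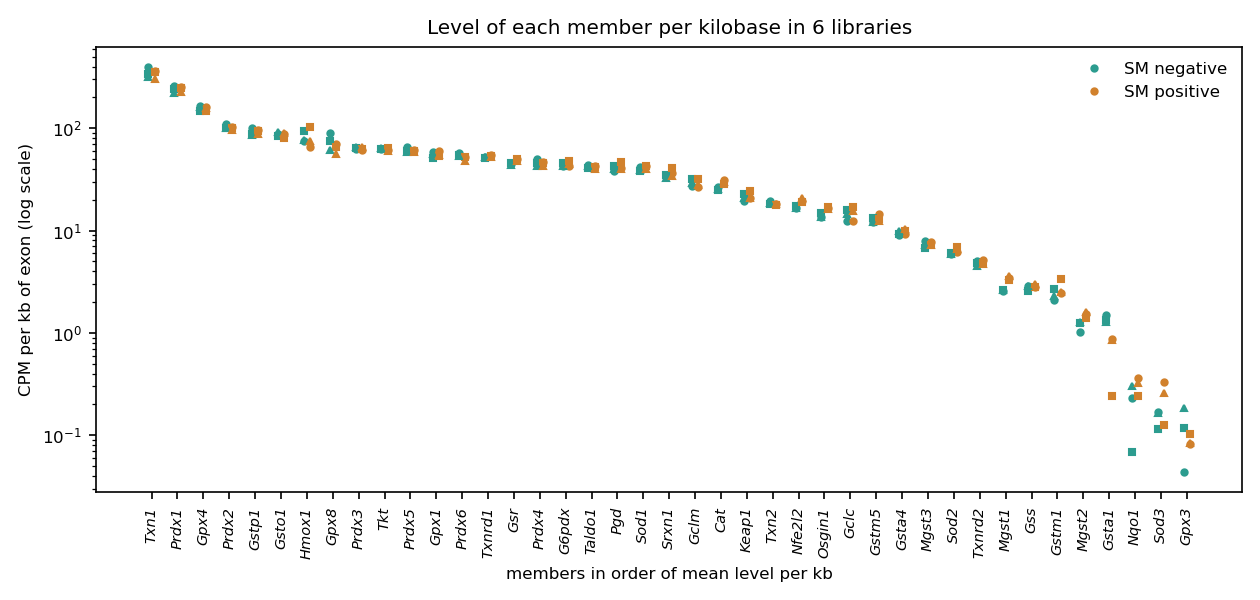
Level of each of the 41 genes in CPM per kb of exon (log axis), in order of the mean over 6 libraries; circles, squares and triangles are replicates 1, 2 and 3, green SM negative and orange SM positive. The colours lie on top of each other for most genes, and the levels run from 345 for Txn1 to 0.102 for Gpx3.

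The antioxidant response element is the DNA site that NRF2 binds, and its core was searched in RefSeq promoters (GRCm38.p6, 250 bases before to 50 after each annotated start) as TGACNNNGC on both strands. Promoters were found for 35 of the 41 genes, and 10 of the 35 (28.6%) held the core, against 17.1% of 9520 tested genes (3781 of all 27025 genes in the promoter table). Among the called members with a promoter, 2 of 6 held it, and among the others 8 of 29. A match is a run of letters and not a measured site. The stretches below show where the core lies in both called members that hold it, Nfe2l2 and Mgst1. For comparison they also show 4 of the 8 members that hold it and did not pass the test, all NRF2-inducible genes. Those of Gstm5, Pgd, Txnrd1 and Sod1 are not shown. Each printed stretch is written 5′ to 3′ along the gene's strand with the core in capitals.
Nfe2l2 (chr2:75704885-75704913, minus strand): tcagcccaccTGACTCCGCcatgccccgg
Mgst1 (chr6:138140461-138140489, plus strand): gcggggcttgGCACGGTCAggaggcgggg
Gclm (chr3:122245413-122245441, plus strand): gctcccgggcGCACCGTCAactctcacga
Prdx1 (chr4:116685456-116685484, plus strand): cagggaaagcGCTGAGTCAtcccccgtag
Srxn1 (chr2:152105542-152105570, plus strand): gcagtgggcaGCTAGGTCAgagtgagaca
G6pdx (chrX:74428919-74428947, minus strand): aggcgggtcaGCTCAGTCAaagcacacgc
The core reads forwards in Nfe2l2 and on the opposite strand in the other 5. It begins 240 bases upstream of the RefSeq start in Nfe2l2, 56 in Mgst1, 134 in Gclm, 133 in Prdx1 and 57 in G6pdx, and 28 bases downstream in Srxn1. The stretches of Mgst1, Srxn1 and G6pdx overlap an exon of the same gene in the GENCODE annotation.

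Of the regulators Nfe2l2 and Keap1, only Nfe2l2 passed edgeR's test with the block. Nfe2l2 (ENSMUSG00000015839.6, GRCm38 chromosome 2, 75675513 to 75704641, minus strand), whose promoter stretch opens the set above, stood at 63.2, 65.3 and 63.2 CPM in SM negative and 73.3, 72.1 and 79.6 CPM in SM positive libraries 1, 2 and 3. Every SM positive library lay above every SM negative one, and the SM positive values were the more scattered. The rise was 1.17-fold (log2 change 0.23 ± 0.0464 SE, 95% interval 0.13 to 0.33; edgeR adjusted p = 0.00196 with the block and 0.108 without). Keap1, the adaptor that brings NRF2 to its ubiquitin ligase, stood at 91.5, 106 and 98.1 CPM in SM negative and 98.4, 114 and 98.1 CPM in SM positive libraries. It was highest in replicate 2 of each fraction, the fractions overlapped, and it did not pass (log2 change 0.07, 95% interval -0.02 to 0.16, adjusted p = 0.316). Gm16754 lies on the strand opposite Keap1, and how reads were assigned by strand is not given in the sources used here.

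Of the NRF2-inducible genes Osgin1, Nqo1 and Hmox1, Osgin1 rose and the others did not pass. Osgin1, an oxidative stress-induced growth inhibitor (ENSMUSG00000074063.10, chromosome 8, 119434124 to 119446256, plus strand), stood at 36.1, 39.6 and 36.5 CPM in SM negative and 44.9, 45.3 and 43.1 CPM in SM positive libraries. The fractions did not overlap, and the rise was 1.19-fold (log2 change 0.25 ± 0.0514 SE, adjusted p = 0.00231 with the block and 0.124 without). Hmox1, haem oxygenase 1, stood at 131, 166 and 135 CPM in SM negative and 115, 179.9 and 132 CPM in SM positive libraries. Its level followed the replicate number, with replicate 2 highest in each fraction, and the difference between fractions was small and of mixed direction over the 3 pairs (log2 change -0.03, 95% interval -0.14 to 0.07, adjusted p = 0.731). Nqo1 had 9, 2 and 10 counts in SM negative and 15, 8 and 10 in SM positive libraries, at most 0.563 CPM. With a 95% interval of -0.31 to 1.57 for its log2 change, a difference could not be detected with so few counts (adjusted p = 0.402).

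**Figure D2:**
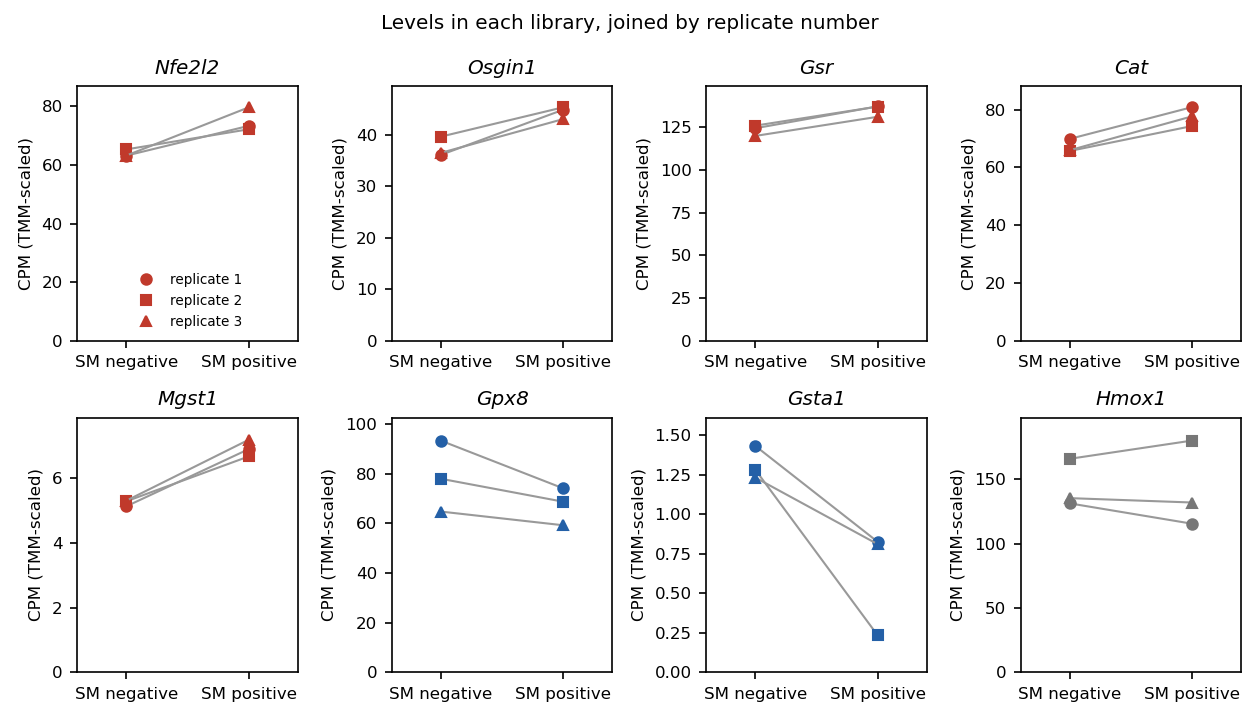
TMM-scaled CPM of the 7 called members and Hmox1 in each library, with lines joining SM negative and SM positive libraries of the same replicate number; red passed as higher, blue as lower, grey did not pass. The vertical axes start at 0; the 5 genes in red rise in every pair, Gpx8 and Gsta1 fall in every pair, and Hmox1 changes direction between pairs.

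Glutathione is made from glutamate, cysteine and glycine by glutamate-cysteine ligase (catalytic subunit Gclc, modifier subunit Gclm) and glutathione synthetase (Gss), and its oxidised form is reduced again by glutathione reductase (Gsr). The recycling enzyme rose and the synthetic enzymes did not pass. Gsr (ENSMUSG00000031584.16, chromosome 8, 33652523 to 33698163, plus strand) stood at 124, 126 and 119.8 CPM in SM negative and 137, 137 and 131 CPM in SM positive libraries. The groups did not overlap and the 3 pairs differed by nearly the same amount, 0.14, 0.12 and 0.13 on the log2 scale of CPM plus 0.5. The rise was 1.1-fold (log2 change 0.13 ± 0.0409 SE, adjusted p = 0.0364 with the block and 0.297 without), and it missed the threshold without robust estimation (0.0619).

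Gclc stood at 46.9, 60.2 and 54.3 CPM in SM negative and 46.7, 64.5 and 58.3 CPM in SM positive libraries. Gclm stood at 171, 200.1 and 182 CPM and at 167, 200.1 and 174 CPM in the same order. Both subunits were lowest in replicate 1 and highest in replicate 2 of each fraction, and both overlapped between fractions. Their log2 changes were 0.07 (95% interval -0.03 to 0.16, adjusted p = 0.402) and -0.03 (95% interval -0.11 to 0.05, adjusted p = 0.657). Gss averaged 16.5 ± 1.1 and 16.9 ± 0.656 CPM (SD, n = 3 libraries each; log2 change 0.03, adjusted p = 0.821).

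The thioredoxin system, in which NADPH-driven reductases (Txnrd1 in the cytosol, Txnrd2 in mitochondria) reduce the thioredoxins Txn1 and Txn2, showed no call among its 5 members in edgeR's test (1, Srxn1, had an unadjusted p under 0.05). Txnrd1, a selenoprotein, stood at 369, 364 and 371 CPM in SM negative and 388, 381 and 374 CPM in SM positive libraries. The fractions did not overlap, yet the step was 1.04-fold and did not pass (log2 change 0.05, 95% interval -0.03 to 0.13, adjusted p = 0.437). Srxn1, sulfiredoxin, which repairs over-oxidised peroxiredoxins, stood at 99.1, 99.0 and 91.8 CPM in SM negative and 103, 116 and 96.7 CPM in SM positive libraries. It was higher in all 3 pairs but overlapped between fractions, and its log2 change of 0.12 (95% interval 0.03 to 0.21) did not pass at adjusted p = 0.0783. Txn1, Txn2 and Txnrd2 had log2 changes of -0.04, -0.05 and 0.03.

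The 6 peroxiredoxins, thiol peroxidases of the cytosol (Prdx1, Prdx2, Prdx6), mitochondria (Prdx3, Prdx5) and endoplasmic reticulum (Prdx4), all had negative log2 changes, from -0.12 to -0.0018, and none passed edgeR's test (1, Prdx6, had an unadjusted p under 0.05); with no filter on low counts Prdx1 turned to 0.0085. Prdx1 was the closest to 0, at 736 ± 60.7 CPM in SM negative and 734 ± 45.3 CPM in SM positive libraries (n = 3 each; 95% interval of the log2 change -0.09 to 0.08, adjusted p = 0.983). Prdx6, the peroxiredoxin with a single catalytic cysteine, was the furthest, at 265 ± 10.1 and 245 ± 12.4 CPM, lower in all 3 pairs and without overlap. Its log2 change was -0.12 (95% interval -0.20 to -0.03), and its adjusted p of 0.0573 missed the threshold. With genes kept only above 1 CPM in 3 libraries Prdx6 passed as lower (adjusted p = 0.0383), and it also passed without pair 2 (0.0378).

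In the glutathione peroxidase family, Gpx8, a member located in the endoplasmic reticulum, fell while Gpx1 and Gpx4 did not pass. Gpx8 (ENSMUSG00000021760.4, chromosome 13, 113042753 to 113046410, minus strand) stood at 93.3, 77.9 and 64.7 CPM in SM negative and 74.1, 68.7 and 59.2 CPM in SM positive libraries. It was lower in SM positive cells in all 3 pairs, while the fractions overlapped because replicate 1 was high and replicate 3 low in each of them. The fitted fall was 1.17-fold (log2 change -0.22 ± 0.047 SE, adjusted p = 0.00329 with the block and 0.524 without). With the block and a pair left out, the log2 change ran from -0.26 to -0.16, and 2 of the 3 fits passed. Without the block, the log2 change was -0.082 without SM negative library 1, -0.35 without SM negative library 3 and -0.14 without SM positive library 3 (adjusted p = 0.851, 0.294 and 0.798). Those unblocked fits leave the replicate numbers unequal between fractions, so they cannot show whether the paired difference rests on a single library. Cdc20b, annotated across Gpx8 on the opposite strand, had 0 CPM in all 6 libraries. Gpx1, the main cytosolic form, averaged 80.1 ± 5.11 and 80.6 ± 5.83 CPM, and Gpx4 272 ± 17.6 and 268 ± 11.2 CPM (n = 3 each), with log2 changes of 0.01 and -0.02 (adjusted p = 0.918 and 0.767). Gpx3 had 2, 4 and 7 counts in SM negative and 4, 4 and 3 in SM positive libraries and was not tested.

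Catalase, the haem enzyme of peroxisomes that splits hydrogen peroxide, rose, and the superoxide dismutases did not pass. Cat (ENSMUSG00000027187.10, chromosome 2, 103453849 to 103485160, minus strand) stood at 69.9, 65.7 and 66.0 CPM in SM negative and 80.9, 74.3 and 77.7 CPM in SM positive libraries. The groups did not overlap, and the rise was 1.16-fold (log2 change 0.21 ± 0.0431 SE, adjusted p = 0.00251 with the block and 0.15 without). Sod2, the mitochondrial dismutase, averaged 59.6 ± 1.01 CPM in SM negative and 65.6 ± 3.76 CPM in SM positive libraries without overlap, at adjusted p = 0.052 (log2 change 0.14, 95% interval 0.04 to 0.23). With no filter on low counts, Sod2 and Srxn1 passed as higher (adjusted p = 0.0285 and 0.0421). Sod1, the cytosolic dismutase, averaged 157 ± 6.86 and 166 ± 6.27 CPM (log2 change 0.08, adjusted p = 0.217). Sod3 had 8 to 16 counts in SM negative and 10 to 33 in SM positive libraries (adjusted p = 0.207).

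Glutathione S-transferases conjugate glutathione to electrophiles, and the microsomal forms also reduce lipid peroxides. Mgst1, the main microsomal form (ENSMUSG00000008540.11, chromosome 6, 138140316 to 138156755, plus strand), stood at 5.13, 5.29 and 5.31 CPM in SM negative and 6.90, 6.68 and 7.19 CPM in SM positive libraries. Both fractions were tight and did not overlap, and the rise was 1.32-fold (log2 change 0.40 ± 0.117 SE, adjusted p = 0.0252 with the block and 0.159 without). Mgst2 showed a change of similar size without passing, at 4.42 ± 0.522 and 5.59 ± 0.407 CPM (n = 3 each; log2 change 0.35, 95% interval 0.07 to 0.64, adjusted p = 0.0954). For Mgst3 the log2 change was 0.02 (95% interval -0.19 to 0.23).

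Among the 6 soluble transferases the alpha-class gene Gsta1 fell and the other 5 did not pass. Gsta1 (ENSMUSG00000074183.3, chromosome 9, 78230656 to 78242684, plus strand) had 36, 24 and 26 counts in SM negative and 22, 5 and 16 in SM positive libraries, which is 1.43, 1.28 and 1.23 CPM against 0.825, 0.234 and 0.810 CPM. All SM positive values lay below the SM negative ones, and replicate 2 was far below the rest. The fall was 2.12-fold (log2 change -1.09 ± 0.33 SE, 95% interval -1.78 to -0.40, adjusted p = 0.0329 with the block and 0.241 without), on few counts, and limma-voom and edgeR without robust estimation gave adjusted p of 0.0673 and 0.0677. The log2 change of Gsta1 was -0.70 without pair 2 and -0.68, without the block, when SM positive library 2 alone was left out (adjusted p = 0.193 and 0.379), and it missed the threshold with any pair left out (0.0752 to 0.193). Its near-copy Gm3776 had 0.199, 0 and 0.569 CPM in SM negative and 0.225, 0.607 and 0.152 CPM in SM positive libraries, so it was highest in the library where Gsta1 was lowest; how the deposited estimates divided reads between these copies was not tested. Gstp1, Gsto1, Gstm5, Gsta4 and Gstm1 had log2 changes of 0.03, -0.02, 0.08, 0.07 and 0.23, with adjusted p from 0.34 to 0.762.

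NADPH for both thiol systems comes largely from the pentose phosphate pathway, and none of its 4 members passed edgeR's test (0 had an unadjusted p under 0.05). The oxidative enzymes G6pdx, which commits glucose to the pathway, and Pgd averaged 135 ± 6.07 and 259 ± 14.2 CPM in SM negative and 139 ± 7.45 and 274 ± 27.0 CPM in SM positive libraries (n = 3 each). The sugar-rearranging enzymes Taldo1 and Tkt averaged 92.0 ± 3.83 and 464 ± 2.69 CPM in SM negative and 89.7 ± 3.48 and 454 ± 15.0 CPM in SM positive libraries. The 4 log2 changes lay between -0.04 and 0.08, and the widest 95% intervals reached -0.13 and 0.16, with adjusted p from 0.221 to 0.657.

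**Figure D3:**
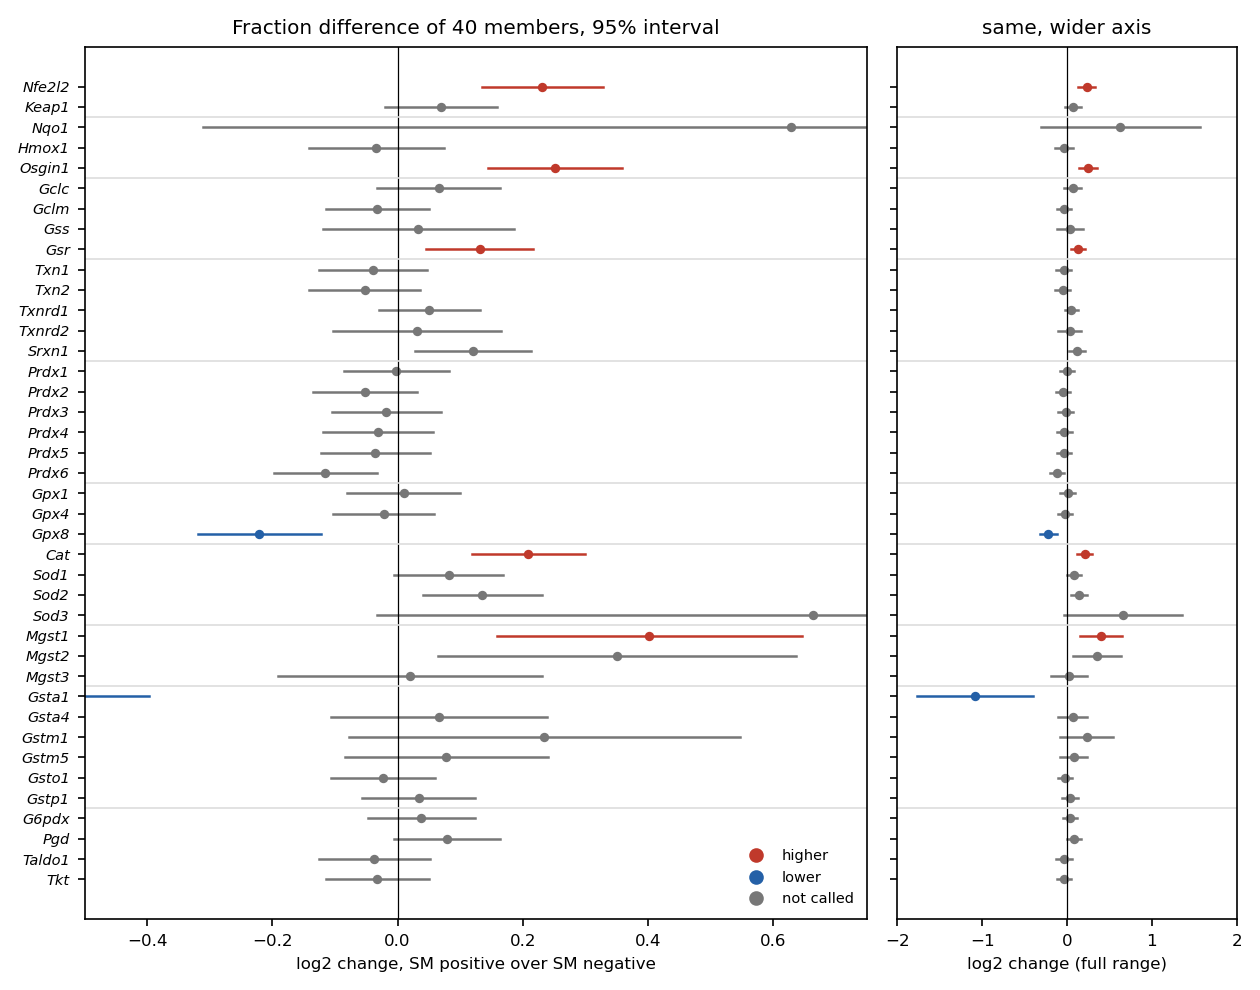
Log2 change of each tested member (SM positive over SM negative, fit with the replicate block) with its 95% interval, grouped by role; the right panel repeats the values on a wider axis because Nqo1, Sod3 and Gsta1 run past the left one. Red and blue mark the 5 higher and 2 lower calls; most intervals of the other 33 genes include 0.

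Across the 40 members, 16 were higher in SM positive cells in all 3 pairs, 5 were lower in all 3 and 19 were mixed. Over all tested genes, 23.9% were higher and 22.7% lower in all 3 pairs. The fractions did not overlap for 8 members that were higher and 3 that were lower, against 10.4% and 9.47% of all tested genes. These 8 were Nfe2l2, Osgin1, Gsr, Cat, Mgst1, Mgst2, Sod2 and Txnrd1, and the 3 were Prdx6, Txn2 and Gsta1.

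Many members differed more between replicate numbers than between fractions. For 30 of the 40, the largest step between the means of the 3 pairs exceeded the mean difference between fractions, as it did for 72.0% of all tested genes. Hmox1 had a step of 0.49 on the log2 scale between replicate numbers, Gclc 0.41 and Gclm 0.24, against mean pair differences of 0.03, 0.07 and 0.03 in size. Nfe2l2, Osgin1, Gsr, Cat and Mgst1 had steps of 0.06, 0.10, 0.07, 0.10 and 0.05, all smaller than their pair differences. The same held for Gsta1, which fell, and for Sod2, Mgst2, Txnrd1 and Txn2, which did not pass. Calls favour large pair differences, so the comparison is no separate evidence for the called members. What the replicate number marks is not given in the sources used here.

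**Figure D4:**
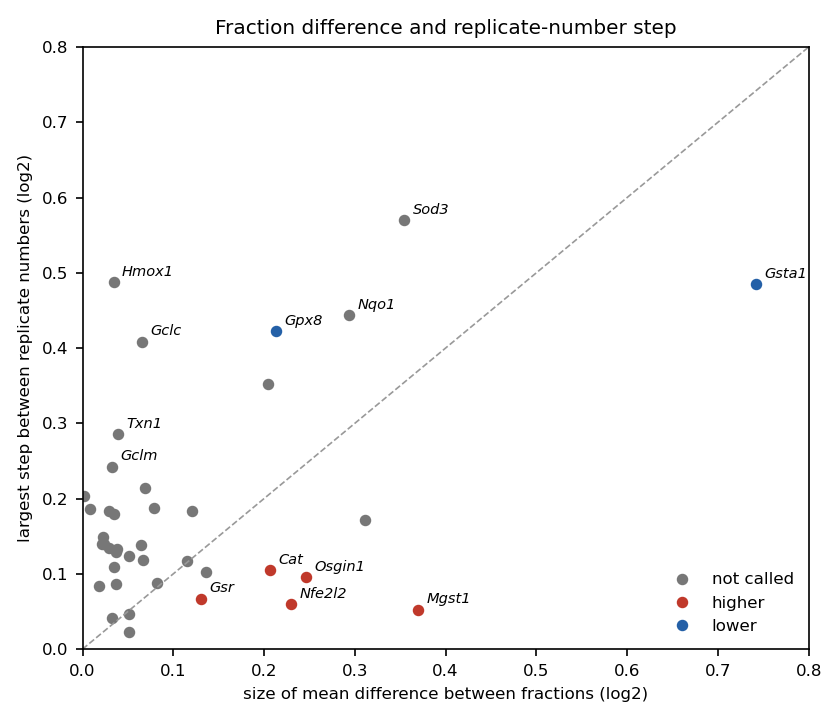
For each of the 40 tested members, the size of the mean log2 difference between fractions (horizontal) and the largest step between the means of the 3 replicate numbers (vertical), both from log2 of CPM plus 0.5, with the line of equality dashed. The 5 members that passed as higher (red) lie below the line, as do Gsta1 (blue), Sod2, Mgst2, Txnrd1 and Txn2. Gpx8 (blue), Hmox1, Gclc and Gclm lie above it.

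The wider pathway was read from 6 further lists that hold 116 genes, of which 88 were tested; 11 rose and 8 fell (21.6%, against 14.1% of all genes). Without the block 4 of the 88 passed, against 1.35% of all genes. All 4 were higher: Aldh3a1, Sesn3, Glrx and Msrb3, the last chosen after its values were seen. For the counts by list that follow, 8.52% of all tested genes rose and 5.6% fell. Among 15 regulators of NRF2, 2 rose and 3 fell. Bach1, a repressor that competes with NRF2 at response elements, rose from 22.8 ± 3.18 to 28.7 ± 0.843 CPM (log2 change 0.34, adjusted p = 0.00124 with the block and 0.163 without). Gsk3b, a kinase that marks NRF2 for degradation, rose 1.21-fold (adjusted p = 0.000166 with the block and 0.0669 without). Mafg, a small MAF partner of NRF2, fell 1.1-fold, and Sqstm1, the p62 receptor that sequesters KEAP1, fell 1.12-fold (adjusted p = 0.0298 and 0.00776 with the block, 0.25 and 0.308 without).

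Of 21 tested further NRF2-inducible genes, 2 rose and 2 fell. The aldehyde dehydrogenase Aldh3a1 had the largest change of that list, 1.89-fold higher (adjusted p = 3.65e-05 with the block and 0.0106 without), and the epoxide hydrolase Ephx1 rose 1.38-fold to 5.42 ± 0.785 CPM (adjusted p = 0.0404 with the block and 0.285 without). The esterase Esd and the efflux pump Abcc4 fell 1.11-fold and 1.17-fold (adjusted p = 0.0134 and 0.0362 with the block, 0.221 and 0.437 without). None of 13 further tested glutathione genes passed edgeR's test (an unadjusted p under 0.05 was reached by 3 with the block and by 0 without); another 14 of that list did not pass the filter.

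Of 20 further thiol-redox genes, 3 rose and 2 fell. Sesn3, a sestrin, stood at 117, 122 and 127 CPM in SM negative and 179, 168 and 195 CPM in SM positive libraries, a 1.48-fold rise with no overlap (adjusted p = 2.9e-08 with the block and 0.00466 without). Glrx, glutaredoxin, rose from 25.4 ± 1.43 to 34.0 ± 1.33 CPM (adjusted p = 3.84e-05 with the block and 0.0267 without). Txnip, which binds and inhibits thioredoxin, fell from 17.9 ± 1.3 to 12.5 ± 1.86 CPM, or 1.45-fold (adjusted p = 8.57e-05 with the block and 0.0629 without). Txndc17 fell 1.11-fold (adjusted p = 0.0318 with the block and 0.384 without). Glrx and Txnip were named for their small p, so their sizes cannot be set against those of Txn1, Txn2, Txnrd1 and Txnrd2. The glutaredoxins Glrx2, Glrx3 and Glrx5 had log2 changes of 0.04, -0.12 and 0.06 and did not pass.

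Among genes that produce superoxide, 5 of 15 were tested and Xdh, xanthine dehydrogenase, rose 1.29-fold from 47.7 ± 6.22 to 61.3 ± 10.7 CPM (adjusted p = 0.000406 with the block and 0.274 without). The phagocyte oxidase gene Cybb had 0 counts in every library, which allows up to 0.113 to 0.16 CPM (3 counts). Of 16 tested genes of NADPH supply, 3 rose and 1 fell. Me3, a mitochondrial malic enzyme, rose 1.46-fold to 11.2 ± 2.69 CPM and Rpe, a pentose phosphate epimerase, 1.17-fold, while Mthfd2, a mitochondrial folate enzyme, fell 1.13-fold (adjusted p = 0.000945, 0.00422 and 0.00647 with the block, 0.284, 0.151 and 0.25 without).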

How the data were processed

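Polyadenylated RNA of 6 libraries was measured by stranded RNA-seq, per the labels' protocols. The authors deposited expected counts per gene; the submitters' processing notes name FastQC 0.11.5, STAR 2.6.0a, RSEM 1.3.1 and GRCm38, with no order, and the annotation and strand setting behind them are unknown from the sources used here. Counts were rounded and matched to GENCODE M21 by identifier (99.8% matched). edgeR 4.0.16 (R 4.3.3) with filterByExpr, TMM and a robust quasi-likelihood fit tested SM positive against SM negative over all 14038 genes, with the replicate number as a block and Benjamini-Hochberg adjustment at 0.05; each adjusted p printed comes from this test unless another is named. SE is the log2 change divided by the root of F. The block was used because the gene set was defined for a paired comparison. Labels do not say what the number marks, so p-values measure spread that may be technical. Deviations from fraction means correlated at 0.196 to 0.28 between libraries of the same number and at -0.175 to -0.0435 otherwise (minimum for pairing 0.1). Because each fraction was centred on its own mean, the negative values follow largely from the positive ones and are no separate evidence. No libraries agreed within sampling noise. Pair differences used a pseudocount of 0.5 CPM. Floors of 3 counts cover counting error only. Alternatives used RLE, library totals, other filters, DESeq2 1.42.0, limma-voom 3.58.1, no robust estimation, no block, and left-out pairs or libraries.

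Members and lists were chosen with earlier results of these data known. Library values are given for members past the threshold and for Nfe2l2, Keap1, Nqo1, Hmox1, Gclc, Gclm, Txnrd1 and Srxn1. From each further list up to 2 genes that rose and 2 that fell with the smallest p are named, and from each list of another cell type the 2 with the highest mean. Trim16l was not matched.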

Additional observations from a re-analysis of the deposited data

How the results depend on the processing

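Over all genes, 1982 passed with the replicate block, against 190 with no replicate block, 612 with DESeq2 and 939 at an adjusted p under 0.01; leaving out pairs or single libraries gave 25 to 1793. Of the 40 members 7 passed, against 0 with no replicate block, 0 with DESeq2 and 4 at 0.01, and 0 to 5 with pairs or libraries left out. Left-out single libraries were run without the block, and the smaller designs have fewer samples. In 118 alternative values of the 7 called members, 47 kept the call, 71 lost it and 0 turned direction. In settings that keep all libraries, 39 of 55 values kept the call and 16 lost it. The fits with single libraries left out all lack the block, without which none of the 7 passed even with all libraries. Among the 7, the log2 change moved by over 1.5 times only for Gpx8 (-0.35 to -0.082), Gsta1 (-1.35 to -0.68) and, narrowly, Nfe2l2 (0.181 to 0.273). Direction turned for 19 members, none called, but in settings that keep all libraries it turned only for 1, Prdx1. Their log2 changes with pairs or libraries left out ran from -0.0038 to 0.13 for Keap1, -0.22 to 0.11 for Hmox1, -0.035 to 0.19 for Gclc, -0.11 to 0.032 for Gclm, -0.019 to 0.079 for Gss, -0.11 to 0.053 for Txn1, -0.0098 to 0.067 for Txnrd2, -0.064 to 0.053 for Prdx1, -0.049 to 0.0031 for Prdx3, -0.088 to 0.026 for Prdx4, -0.067 to 0.0091 for Prdx5, -0.055 to 0.051 for Gpx1, -0.074 to 0.016 for Gpx4, -0.026 to 0.079 for Mgst3, -0.029 to 0.14 for Gstm5, -0.053 to 0.025 for Gsto1, -0.0091 to 0.11 for Gstp1, -0.0016 to 0.076 for G6pdx and -0.0013 to 0.13 for Pgd. With no filter Prdx1 gave 0.0085. The cause of these shifts was not tested. Depth limits Nqo1, Sod3, Gsta1 and Gpx3, each under 1 CPM on average.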
